A study of Arabidopsis thaliana with 3 samples.

Results

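The genes described here are the 3 enzyme genes of N-hydroxypipecolic acid synthesis, ALD1 (AT2G13810), SARD4 (AT5G52810) and FMO1 (AT1G19250), and 3 pathogenesis-related output genes, PR1 (AT2G14610), PR2 (AT3G57260) and PR5 (AT1G75040). They were chosen by name, and all 6 were found among 27444 nuclear protein-coding genes of Arabidopsis thaliana. The measurement was chromatin immunoprecipitation followed by sequencing of DEK2, a chromatin protein that the series title ties to histone marks and plant immunity. The 2 immunoprecipitates came from 14-day-old seedlings of the dek2-1 mutant that carried a transgene for DEK2 fused to YFP, driven by the gene's own promoter (pDEK2::DEK2-YFP), and an antibody against GFP was used. One input sample without antibody came from the same genotype and has no values used here. No bacterial or mock treatment is named for these samples, so they were taken as 1 condition, and whether the seedlings were treated is not stated. No mock immunoprecipitation of untagged plants was analysed here. The labels do not say whether the replicates were grown apart, so their spread may be technical.

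Pipecolic acid and its N-hydroxylated form are lysine-derived signals that build up in infected leaves and prime distant leaves, a state called systemic acquired resistance. ALD1 is the aminotransferase that starts the route from lysine, SARD4 is the reductase that completes pipecolic acid, and FMO1 is the monooxygenase that hydroxylates it. PR1, PR2 and PR5 encode secreted proteins (a CAP-domain protein, a glucanase and a thaumatin-like protein) and are widely used readouts of salicylic acid signalling; their transcripts are known to be low in unchallenged plants and high after infection.

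DEK2-YFP peaks were listed within 2 kb of 4 of the 6 genes, and no peak shared by the replicates overlapped any of the 6. Within 2 kb of the gene, SARD4 and PR5 had a peak in both replicates, FMO1 and PR2 had peaks in replicate 1 only, and ALD1 and PR1 had none in either. Replicate 1 thus had a peak near 4 of the 6 genes (66.7%), against 82.2% of all protein-coding genes. Replicate 2 had one near 2 of the 6 (33.3%), against 54.2% of all genes. A shared peak is one of replicate 1 whose overlap with one of replicate 2 reaches 50% of the shorter of the pair. Such a peak lay near 2 of the 6 genes, against 52.5% of all genes. No peak of either replicate lay near 2 of the 6 genes, against 17.1% of all genes, and a replicate 1 peak without a shared one lay near another 2, against 29.7%. Peaks over the gene itself were fewer: replicate 1 peaks overlapped 2 of the 6 genes (FMO1 and PR2), against 61.3% of all genes, replicate 2 peaks 0, against 26.5%, and shared peaks 0, against 32.6%. With 6 genes and 1 condition these counts are descriptions, and no test was made. A longer gene offers more span to overlap. PR1, PR5, SARD4 and PR2 measured 902 to 1571 bp, FMO1 2720 bp and ALD1 3850 bp, against a median of 2078 bp for all genes. The synthesis genes and the PR genes gave the same counts, with 2 of 3 near a replicate 1 peak and 1 of 3 near a shared peak in each set.

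**Figure D1:**
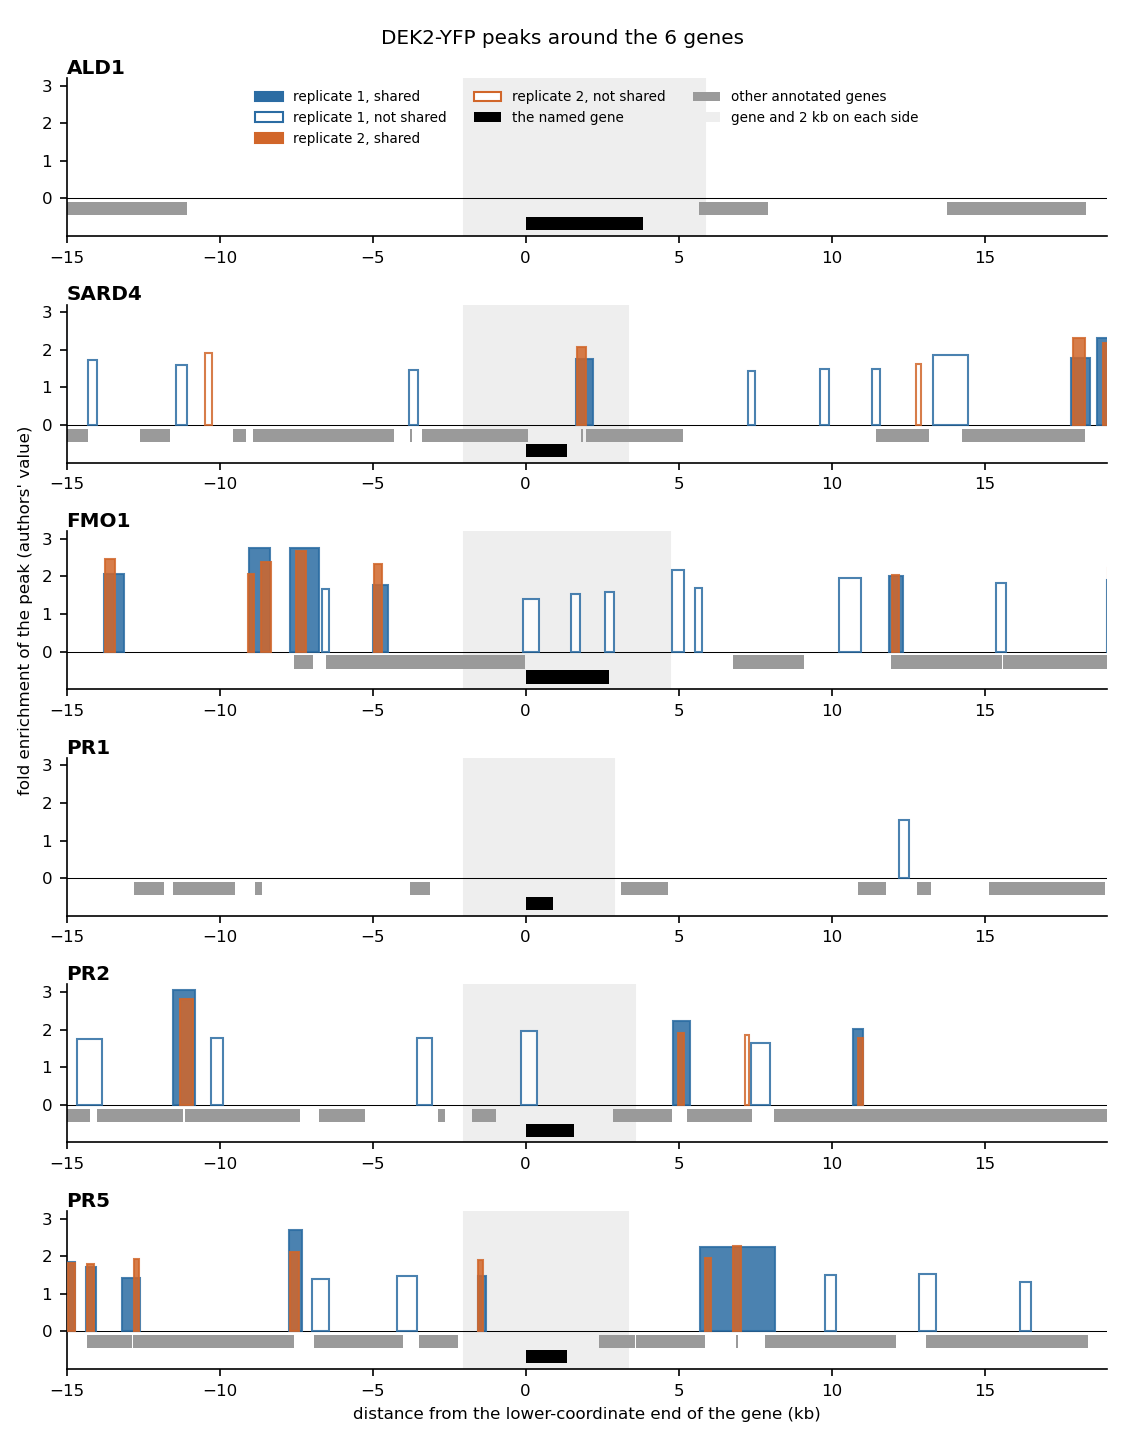
Peaks of both replicates around each of the 6 genes, with the distance from the gene's lower-coordinate end in kb on the horizontal axis and the fold enrichment of each peak on the vertical axis. Filled bars are shared peaks and open bars are not; the grey band is the gene with 2 kb on each side, which holds filled bars for SARD4 and PR5, open bars for FMO1 and PR2, and no bar for ALD1 and PR1.

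The lists behind these values held 25742 peaks in replicate 1 and 13307 in replicate 2, and 10812 of the replicate 1 peaks were shared. Read depth is not given, and the lists were not equally sensitive. Among peaks with a −log10 q from 2.5 to 3, the median fold enrichment was 1.47 in replicate 1 (1143 peaks) and 1.86 in replicate 2 (1701 peaks), so weaker enrichment was listed in replicate 1. A gene without a listed peak may be enriched below the threshold of the peak caller. Fold enrichment is the authors' value for a peak, the pileup at its summit over the modelled background, and is compared below only with other peaks of its own list. Positions are TAIR10, counted from 1.

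SARD4 was the member with the nearest shared peak. In replicate 1 the peak ran over chr5:21400990-21401519, 304 bp beyond the higher-coordinate end of the gene, with a fold enrichment of 1.75 and a −log10 q of 10.6. In replicate 2 it ran over chr5:21400997-21401314, 311 bp from the gene, with a fold enrichment of 2.07 and a −log10 q of 6.99. The summits of the replicates lay 24 bp apart, 520 and 496 bp from SARD4. Both fell inside another gene, the tRNA gene AT5G52815, and the replicate 1 summit was also 106 bp from the protein-coding gene AT5G52820, whose span the peaks of both replicates overlapped. The peak was of middling strength, above 42.4% of the replicate 1 list and 57.3% of the replicate 2 list. No peak overlapped SARD4 or the gene on its other side, AT5G52800, with which it shares 89 bp of span.

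Shared peaks overlapped 378 of 625 nuclear tRNA genes (60.5%), against 32.6% of protein-coding genes. Spans differ, at 72 bp for AT5G52815 and a median of 2078 bp for protein-coding genes. In 29 tRNA genes, AT5G52815 included, summits of both replicates lay inside, and no share over other genes was taken for this count. Which of the 3 genes the SARD4-side peak belongs to cannot be told apart from the peak lists.

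PR5 had the weaker of the 2 shared peaks near members. It ran over chr1:28176121-28176371 in replicate 1, with a fold enrichment of 1.48 and a −log10 q of 2.54. The replicate 2 peak ran over chr1:28176126-28176289, with a fold enrichment of 1.899 and a −log10 q of 2.91. These peaks lay on the lower-coordinate side, 1299 and 1381 bp from PR5, and their summits were 94 bp apart. They exceeded only 10.9% of the replicate 1 list and 32.1% of the replicate 2 list. The replicate 1 summit was nearer to the neighbouring thaumatin-like gene TLP-3 (AT1G75030), 785 bp away, than to PR5, 1429 bp away. On the other side, the next gene AT1G75050 had no peak within 2 kb, and the nearest one lay 2133 bp from it.

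FMO1 was the only member with more than 1 peak of a list within 2 kb, and all 3 were weak and from replicate 1. The first ran over chr1:6650375-6650902 with a fold enrichment of 1.41 and a −log10 q of 2.78. Its summit lay 86 bp outside FMO1 and inside the adjoining gene AT1G19240, which ends 30 bp from FMO1. The second, over chr1:6651968-6652246, had its summit 1073 bp inside FMO1, with a fold enrichment of 1.53 and a −log10 q of 2.91. The third, over chr1:6653076-6653359, had its summit 88 bp inside the higher-coordinate end, with a fold enrichment of 1.59 and a −log10 q of 4.40. These values sat in the lower part of the list, above 5.73%, 15.9% and 22.9% of replicate 1 peaks. Together the 3 peaks covered 16.2% of the gene with its 2 kb flanks, more than in 61.1% of all genes. Having 3 or more replicate 1 peaks within 2 kb was not rare (29.2% of genes), but 17.7% of such genes had no shared peak there, and FMO1 was one of them.

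A stronger peak lay just outside the 2 kb limit of FMO1. It ran over chr1:6655245-6655651, 2050 bp beyond the higher-coordinate end, with a fold enrichment of 2.16 in replicate 1 (above 77.4% of its list) and no shared counterpart. The nearest shared peak was on the other side, 4482 bp away inside AT1G19230, over chr1:6645491-6645994. Its fold was 1.78 in replicate 1, against the 2.33 of its replicate 2 counterpart.

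PR2 (BGL2 in the reference table) carried the strongest peak of the members in replicate 1. This peak ran over chr3:21188231-21188757 and overlapped the gene by 361 bp, with its summit 132 bp inside the lower-coordinate end. Its fold enrichment was 1.97 and its −log10 q was 11.98, above 64.8% of the replicate 1 list. Replicate 2 had no peak within 2 kb of PR2, and its nearest lay 3400 bp away. That distance belongs to the nearest shared peak, over chr3:21193214-21193773. Its replicate 1 summit lay between the glucanase gene BG1 (AT3G57270), 381 bp away, and AT3G57280, 110 bp away. The replicate 1 peak overlapped AT3G57280 but not BG1. The fold there was 2.24 in replicate 1, with 1.91 for its replicate 2 counterpart. PR2 thus lay between the glucanase genes BG1 and BG3 (AT3G57240). BG1 had a shared peak 25 bp beyond its end that faces away from PR2. BG3, 5253 bp from PR2 with other genes between, had no shared peak within 2 kb, with 4049 bp to the nearest. A replicate 1 peak with a fold of 1.77 lay 1700 bp from BG3. Glucanase genes are similar in sequence, and the sources used here do not say how reads with several matches were treated.

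**Figure D2:**
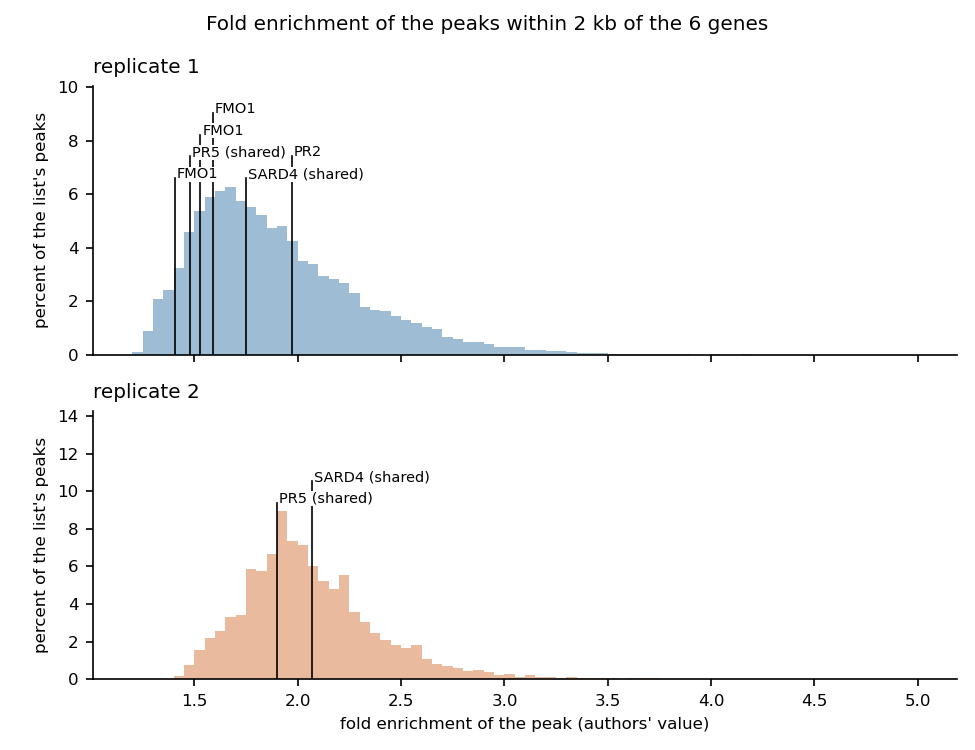
Percent of each list's peaks (vertical axis) by fold enrichment (horizontal axis), with a vertical line at each peak within 2 kb of a member. In replicate 1 the 6 lines lie between 1.41 and 1.97, and 1 of them, PR2, lies above the list's median of 1.82; in replicate 2 the lines are at 1.899 (PR5) and 2.07 (SARD4), on either side of the median of 2.02.

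The strength of a replicate 1 peak went with how often it was found again, so the replicate 1 peaks without a counterpart can be set beside peaks like them. Among all replicate 1 peaks within 5% of the same fold enrichment, 13.6%, 16.6% and 19.8% were shared for the 3 FMO1 peaks. The share was 15.1% for the PR5 peak, which was shared, and 29.8% for the SARD4 peak, which was shared too. For the PR2 peak it was 48.5%. Sharing was thus the less common outcome at the folds of all 6 peaks, the 2 shared ones included. Whether FMO1 and PR2 differed between the replicates was not tested.

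**Figure D3:**
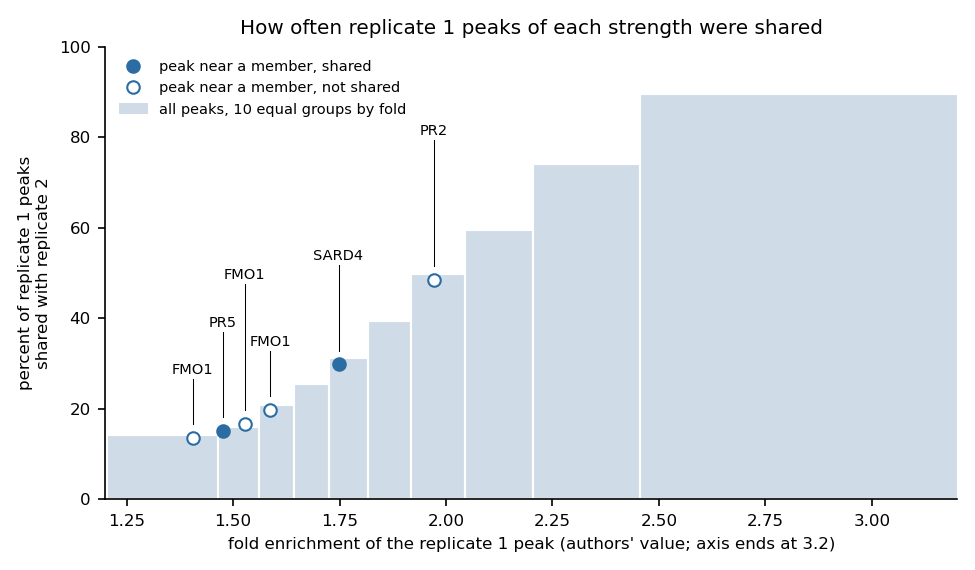
Percent of replicate 1 peaks shared with replicate 2 (vertical axis) by fold enrichment (horizontal axis), for all peaks in 10 equal groups (bars) and for peaks like each member peak, within 5% of its fold (circles, filled where the member peak itself was shared). The bars climb with fold, from 14.2% in the weakest group to 89.7% in the strongest; the member peaks sit in the lower part of that range, and the PR2 peak is the highest of them at 48.5%.

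The best fold near each member was also low against other genes that had a peak within 2 kb. In replicate 1, where the median best fold over 22557 such genes was 2.06, PR2 exceeded 41.9% of them, SARD4 21.3%, FMO1 9.31% and PR5 3.87%. In replicate 2, where the median over 14863 genes was 2.10, SARD4 exceeded 45.4% and PR5 23.9%. All 6 of these values were below the median.

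ALD1 and PR1, the first enzyme of the pathway and the most used PR marker, lay far from any peak. The peak nearest to ALD1 was a replicate 1 peak 15145 bp away, with its summit inside SERK5 (AT2G13800) and a fold enrichment of 1.83. The nearest shared peak was 76112 bp away, over chr2:5691739-5692305, with 2.22 in replicate 1 and 2.60 in replicate 2, and its replicate 1 summit was 136 bp from AT2G13660. For PR1 the nearest peak was a replicate 1 peak 11311 bp away with a fold enrichment of 1.56, and the nearest shared peak was 29654 bp away over chr2:6272195-6273389, beside AT2G14660, with 1.83 and 2.35. No peak of either replicate lay within 10 kb of these 2 genes, which holds for 4.67% of all genes. A shared peak lay nearer to 97.8% of all genes than to ALD1, and nearer to 95.3% than to PR1.

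Both genes sat in long stretches without any listed peak, each with 7 protein-coding genes. The shares of gaps given here count each gap once, so they are not shares of genes. The stretch around ALD1 measured 82790 bp, and 71 of the 26842 gaps between neighbouring peaks (0.265%) were at least as long. Besides ALD1 it held 6 protein-coding genes, among them the adjacent XYP2 (AT2G13820). That around PR1 measured 72244 bp (81 gaps, 0.302%, were at least as long) and held the PR1 relative PRB1 (AT2G14580), the late pathogen-response gene LURP1 (AT2G14560), TBL13, SRP2, XTH10 and AT2G14520. PR1, PRB1 and LURP1 are therefore not separate instances of a gene without peaks.

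Gene density moved with this result. ALD1 had 9 protein-coding genes in the 100 kb around it and PR1 had 12, itself included, fewer than nearly all genes (1.85% and 3.10% of genes had fewer still), whereas FMO1, PR2, SARD4 and PR5 had 28 to 35, against a median of 28. Of the 973 genes with at most 12 in their 100 kb, 76.7% had no peak of either replicate within 2 kb, and 9.56% had a shared one. Of the 13830 genes with at least 28, 11.6% had no peak and 56.4% had a shared one. Absence of peaks at ALD1 and PR1 was thus the commoner state for genes in surroundings as sparse as theirs; the part of gene density in the result was not tested. The other 4 members, in surroundings of average or high density, had a shared peak in 2 of 4 cases.

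**Figure D4:**
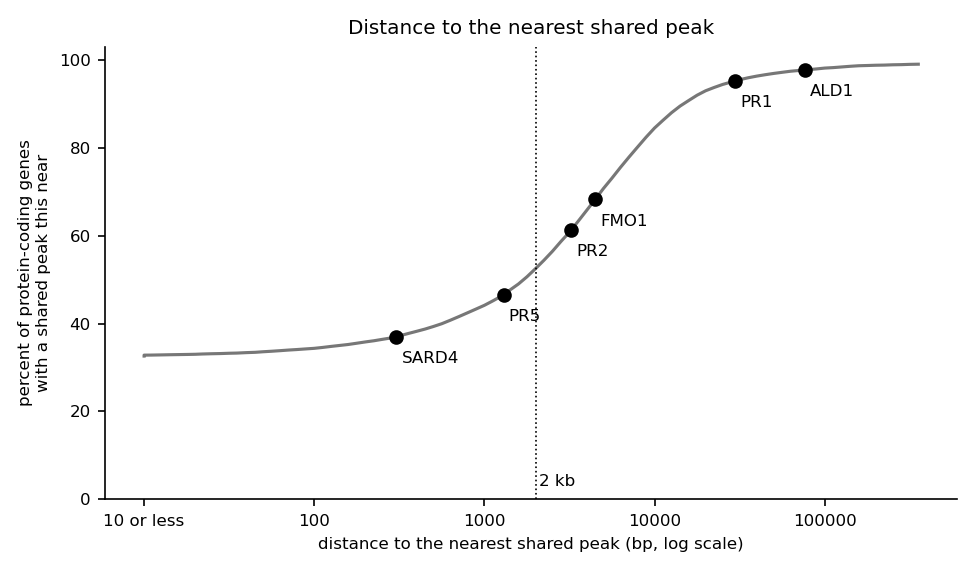
Percent of protein-coding genes (vertical axis) with a shared peak at or nearer than the distance on the horizontal axis (bp, log scale), with the 6 members marked on the curve. SARD4 (304 bp) and PR5 (1299 bp) lie left of the 2 kb line, PR2 (3247 bp) and FMO1 (4482 bp) just right of it, and PR1 (29654 bp) and ALD1 (76112 bp) on the flat end of the curve.

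Around the 6 members, 36 other genes of systemic immunity, salicylic acid synthesis and response and PR families were examined the same way. Of these, 31 (86.1%) had a replicate 1 peak within 2 kb, against 82.2% of all genes, and 25 (69.4%) a replicate 2 peak, against 54.2%. A shared peak lay within 2 kb of 25 (69.4%), against 52.5% of all genes and 2 of the 6 members. Requiring −log10 q ≥ 5 of each peak of a pair lowered the count to 10 of 36 (27.8%), against 22.3% of all genes, and with an overlap reaching 50% of both peaks it was 12 (33.3%), against 28.4%. Whether the list differs from other genes or from the members was not tested. Shared peaks lay near 12 of 17 regulators and receptors, near 8 of 9 genes of synthesis, transport and turnover, near 2 of 4 systemic signal proteins and near 3 of 6 PR relatives and late output genes. A shared peak overlapped 18 of the 36 genes and none of the members, against 32.6% of all genes. Gene spans differ between these sets, with a median of 2213 bp for the 36, 2078 bp for all genes and 902 to 3850 bp for the members. Among the genes with a shared peak, the best-ranked one had a median fold of 2.24 in replicate 1 and 2.15 in replicate 2, and neither SARD4 nor PR5 reached it in either replicate.

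The 5 list genes whose shared peaks ranked highest in both lists were EDS5, NPR4, WRKY54, NIMIN2 and UGT76B1. For EDS5, the transporter gene that exports a salicylic acid precursor from plastids, the peak ran over chr4:18182927-18183448. It had 2.96 in replicate 1 and 2.44 in replicate 2, but its replicate 1 edge lay 1989 bp from the gene. Its summit was nearer to AT4G39020. The replicate 2 counterpart lay beyond 2 kb of EDS5, and the only replicate 2 peak within 2 kb had 1.72. That peak was the counterpart of another shared peak, which overlapped EDS5 with its replicate 1 summit 423 bp inside and a replicate 1 fold of 1.48. The salicylic acid receptor gene NPR4 had 2.66 and 2.31, from a peak with its summit inside the gene, over chr4:10698460-10699386. WRKY54, a transcription factor gene of the salicylic acid response, had 2.45 and 2.90 at a summit 93 bp outside the gene, over chr2:17002374-17002874. NIMIN2, whose protein binds NPR1, had 2.37 and 2.27 from a peak 1855 bp away that is nearer to AT3G25880. Another shared peak overlapped NIMIN2 itself, with 2.83 and 2.03, and a further one lay 1229 bp away, with 2.21 and 2.72. UGT76B1, which encodes the glucosyltransferase that inactivates N-hydroxypipecolic acid, had 2.52 and 2.22 from a peak 490 bp away, over chr3:3555561-3556064. The turnover gene of the pathway thus had a stronger shared peak in each list than SARD4, the only synthesis gene with one.

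No peak of either replicate lay within 2 kb of 5 of the 36 genes, against 17.1% of all genes. These 5 are the lipid-transfer-type genes AZI1 and EARLI1, the oxygenase gene DLO1 (AT4G10500), PRB1 and LURP1. PRB1 and LURP1 each had 10 protein-coding genes in their 100 kb and share the stretch of PR1. AZI1 and EARLI1 are neighbours as well, and they and DLO1 had 21 to 23 genes in their 100 kb. Among the PR relatives, PR3 (1.81 and 2.01), PR4 (1.70 and 2.205) and BG1 (2.24 and 1.91) had a best-ranked shared peak with its summit outside the gene. The replicate 2 peak with 2.205 lay beyond 2 kb of PR4, and the highest replicate 2 fold within 2 kb of it was 2.19. PR3 had another shared peak that overlapped the gene, with its replicate 1 summit 202 bp inside and folds of 2.12 and 1.47.

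**Figure D5:**
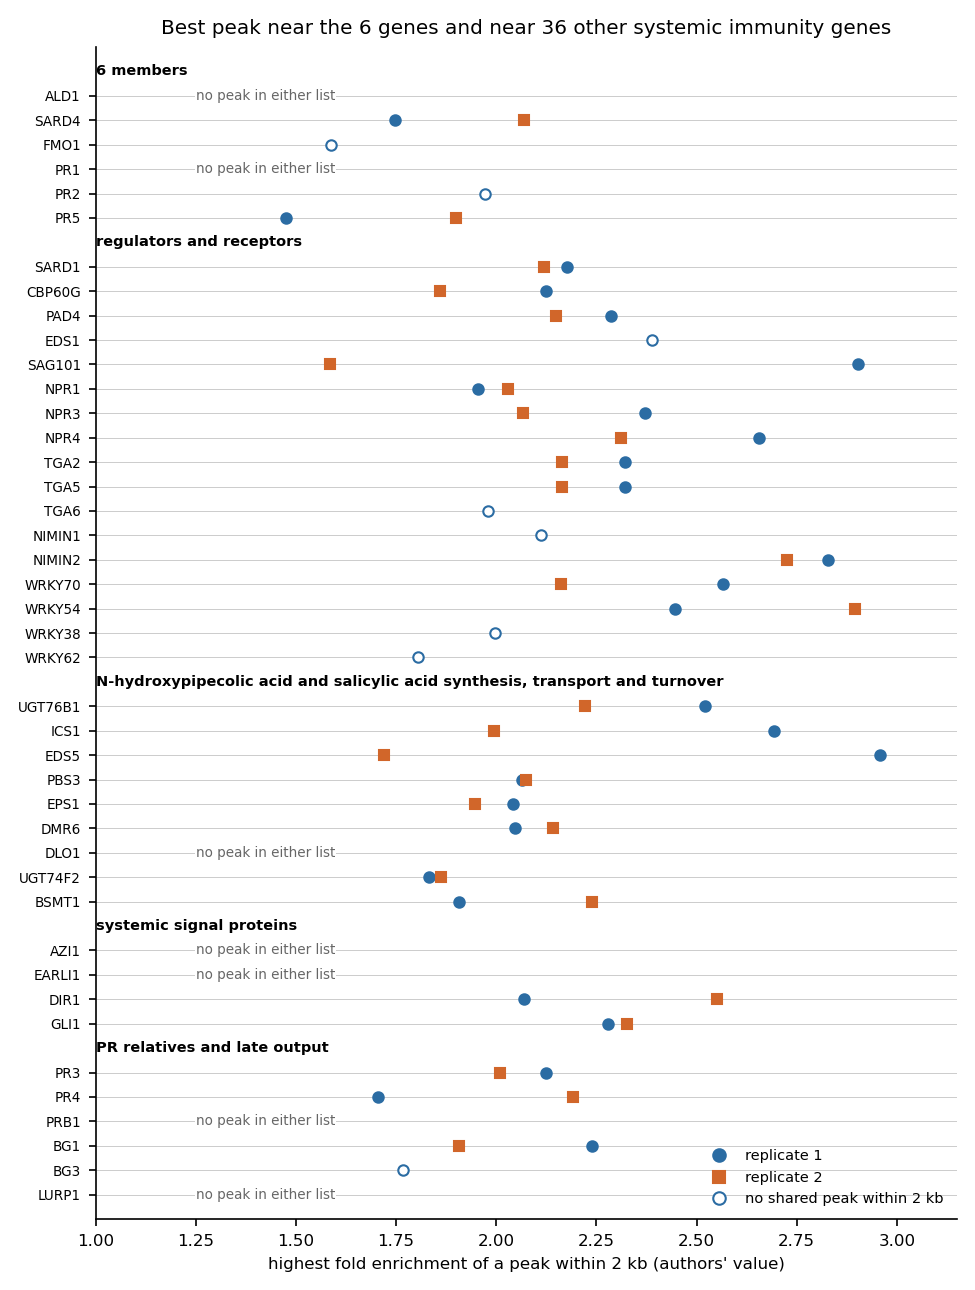
Highest fold enrichment of any peak within 2 kb (horizontal axis) for the 6 members and the 36 other genes, grouped by role; circles are replicate 1, squares are replicate 2, and open symbols are genes without a shared peak there. Of the members, SARD4 and PR5 have filled symbols, FMO1 and PR2 open ones, and ALD1 and PR1 none, as do 5 of the other genes.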

How the data were processed

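The deposited files are 1 narrowPeak list per immunoprecipitate, without header, and columns were read by their place in that format. Per the submitters' processing notes, Trimmomatic 0.38, Bowtie2 2.3.5, SAMtools 1.9, MACS2 2.2.7.1 and the TAIR10 build were used, with no roles or settings; whether the input was the control for peak calling is not stated in these sources. The authors' values are a fold enrichment (a ratio), −log10 p-values and q-values, a score made from the q-value, and a summit position as another deposited value in bp.

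Gene names and spans came from the RefSeq table of TAIR10.1, which has no strand, exons or sequence; its coordinates are not printed, and the planned search for 5 motifs was not run. Shared summits shifted in steps of 50 bp over 1 kb either way fell inside genes least often at a shift of 0 (41.3%), so peaks and spans are in register at that scale. PR2 matched by synonym, SARD4 by locus; the 36 other genes matched by locus.

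Distances run from the edge of the replicate 1 peak to the gene span. Where several replicate 2 peaks match, the highest fold is given. The members, gene lists and rules were chosen with earlier results of these data known. Named beside the members are their neighbours, the 5 list genes with the best shared peaks (by the worse of the ranks in the lists) and the list genes without peaks; the PR relatives with a shared peak, BG3, and AT5G52815 with other tRNA genes were named after their values were seen. Alternatives changed the window, the overlap, the −log10 q threshold, the peak's reference point and the replicates used. Code (Python 3.11.15, pandas 2.3.3) was tested on simulated data.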

Additional observations from a re-analysis of the deposited data

How the results depend on the processing

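With a −log10 q of at least 5, the members with a replicate 1 peak within 2 kb numbered 2 in place of 4 (SARD4 and PR2), those with a replicate 2 peak 1 in place of 2, and those with a shared peak 1 in place of 2 (SARD4 in both cases); the shares of all genes were then 73.4%, 23.3% and 22.3%. PR5 was lost likewise with windows of 500 bp and of 1 kb, where 1 member kept a replicate 2 peak (39.7% and 45.5% of all genes) and 1 a shared peak (39.3% and 44.1%). Leaving out 1 replicate gave 2 to 4 members, with replicate 1 alone adding FMO1 and PR2. Of the other genes, 10 of 36 (27.8%) had a shared peak at the stricter q, against 22.3% of all genes, 12 (33.3%) where the overlap had to reach 50% of both peaks, against 28.4%, and 25 to 31 when 1 replicate was left out, against 54.2% and 82.2%. The median distance from the members to a shared peak, 3864.5 bp, became 6813 bp with overlap of both peaks, 7643 bp at the stricter q and 4168 bp from the summit. The median best fold over members with a peak, 1.67 in replicate 1 and 1.98 in replicate 2, became 1.75 and 2.07 with a window of 500 bp, by the loss of PR5. ALD1 and PR1 had no peak within 2 kb under any alternative. None of the alternatives could have given them one, since their nearest listed peaks lay 15145 and 11311 bp away. No paired analysis was possible because both replicates belong to 1 group and no test was made. Depth is unknown, so enrichment below the threshold of a list could not be judged.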

Other observations

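The neighbours of the members included other genes of immunity and growth signalling. SERK5 and SERK4, receptor-like kinase genes of the family that includes the co-receptor BAK1, are the nearest genes on the lower-coordinate side of ALD1. The replicate 1 peak over chr2:5752920-5753272 had its summit inside SERK5 but extended past the lower-coordinate end of that gene. Its −log10 q was 10.3 and it had no replicate 2 counterpart. The peak nearest to SERK4 lay 6087 bp from that gene. WRKY27 on the far side of SARD4 was overlapped by a peak of each replicate, but its nearest shared peak was 4614 bp away.

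Beyond PR5, a replicate 1 peak of 2429 bp (the list's median width is 465 bp) ran over chr1:28183379-28185807, with a fold enrichment of 2.24. It overlapped the protein-coding gene AT1G75060, took in the tRNA gene AT1G75070 and reached into BZR1, a transcription factor gene of brassinosteroid signalling. Replicate 2 had 2 narrower peaks within it, of 208 and 271 bp, with folds of 1.96 and 2.27, and the summit of the stronger one lay inside the tRNA gene. This peak lay 4357 bp from PR5, farther away than the one described near TLP-3, and its replicate 1 summit was 68 bp outside the tRNA gene.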
